A study of Mus musculus with 6 samples.

Results

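Toll-like receptors are membrane proteins with which cells detect molecules of microbes. The genes Tlr1 to Tlr9 were chosen by name, and the arrays carried 13 probes for these 9 genes, of 55681 probes under 34298 gene names. They were read on 6 mouse expression arrays (Agilent, 1 dye per array), 3 of stomach organoids and 3 of esophageal organoids, which are epithelial cells grown in Matrigel into small hollow or layered bodies. By the sample titles, mice 1, 2 and 4 each gave a culture of either tissue, taken at passage 0 and labelled as control. Harvest was on day 8 of culture, and on day 7 for the stomach culture of mouse 4.

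Stomach organoids were started from glands of the corpus and esophageal organoids from cells freed by collagenase and TrypLE. The methods name wild-type C57BL/6 female mice and an age range at euthanasia, and tie neither to the array animals. Both media contained EGF, noggin, FGF-10, N-acetyl-L-cysteine, nicotinamide, a TGF-β receptor kinase inhibitor, a ROCK inhibitor, B27, N2 and antibiotics. WNT3A- and R-spondin1-conditioned media and gastrin were added for the stomach only, and forskolin for the esophagus only. Tissue and medium therefore cannot be told apart in any comparison here. Cultures at passage 0 may still hold other cells of the tissue, whose markers are given at the end.

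TLR1, TLR2, TLR4, TLR5 and TLR6 act at the plasma membrane. TLR2 pairs with TLR1 or TLR6 to bind bacterial lipopeptides, TLR4 binds lipopolysaccharide together with MD-2 (encoded by Ly96), and TLR5 binds flagellin. TLR3, TLR7, TLR8 and TLR9 act in endosomes and bind nucleic acids, TLR3 double-stranded RNA, TLR7 and TLR8 single-stranded RNA, and TLR9 DNA with unmethylated CpG. All of them except TLR3 signal through the adaptor MyD88, TLR3 signals through TRIF (encoded by Ticam1), and TLR4 uses both. The pathways end in NF-κB and interferon regulatory factors, and in epithelia of the gut they are known for antimicrobial peptide and chemokine responses to bacteria.

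What the arrays read is a stretch of each transcript, and 30 of the 60 bases of the probe are shown for the 5 members whose values carry the results below. Each run is in the probe's own 5′ to 3′ direction and wholly in lower case, since no position in it is singled out. No other gene name's probe shared a run of 15 or more bases with the Tlr2 probe or the Tlr4 probe, and the longest shared run was 15 bases for Tlr3, 15 for Tlr5 and 16 for Tlr9.
Tlr4: ttgagaacattttggggaggaagaaaggtc
Tlr3: taatgctcatttttgagacgtttatagaat
Tlr9: ctggttcccgagttgctctgcctgccttgc
Tlr2: ccttggatgaaggccagcaggaagtgtttt
Tlr5: ttgtctcactgttttccaaatggaaagtaa

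The arrays separated the labelled epithelia. All 6 squamous markers of a fixed list (Krt5, Krt14, Krt15, Krt4, Krt13 and Dsg3) were higher in esophageal organoids, and all 6 columnar gastric markers (Krt8, Krt18, Krt7, Gkn3, Muc6 and Tff2) were higher in stomach organoids, each called by the test described below. The brightest probes of 9 of these 12 genes, all but Krt18, Krt7 and Gkn3, were not well above background on 1 or more arrays of the dimmer tissue. No size is given from those probes. Krt18, Krt7 and Gkn3 were well above background on all 6 arrays and differed by -5.47, -7.96 and -10.2, esophagus minus stomach. Krt13 also had a dimmer probe that cleared this mark in both tissues, and it read 5.75 higher in the esophagus (limma adjusted p = 1.30e-05). All differences here are esophagus minus stomach, so a negative value means a higher level in the stomach. Of the non-control spots, 45.5% to 51.1% per array were well above background by the scanner software's flag. A probe counted as well above background on an array when at least 0.5 of its spots carried that flag. Below background is used here for a probe that did not, and does not mean a signal under the background itself. All esophageal arrays but that of mouse 4 shared a slide and a scan with the stomach arrays.

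Of the 9 receptor genes, 2 differed between the tissues, Tlr4 and Tlr3, and both were higher in stomach organoids. The other 7 did not pass the test, and 0 were called higher in esophageal organoids, where 0 also passed at an unadjusted p under 0.05 in limma. A gene was called at an adjusted p under 0.05 in limma, with p-values adjusted over all 55681 probes and each gene read by its probe with the highest mean. Of all probes, 12.2% were called, 5.94% with the esophagus above and 6.22% with the stomach above. Of the brightest probes of all gene names, 7.70% were called higher in the stomach and 7.15% higher in the esophagus, and among those well above background on each of the 3 arrays of some tissue the shares were 13.9% and 12.8%. Only 3 receptor genes, Tlr3, Tlr4 and Tlr9, passed the background flag on each of the 3 arrays of some tissue, so that the level of the others was at or near the limit of the assay. The median difference over the 9 genes was -0.10, against 0.03 over all gene names.

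**Figure D1:**
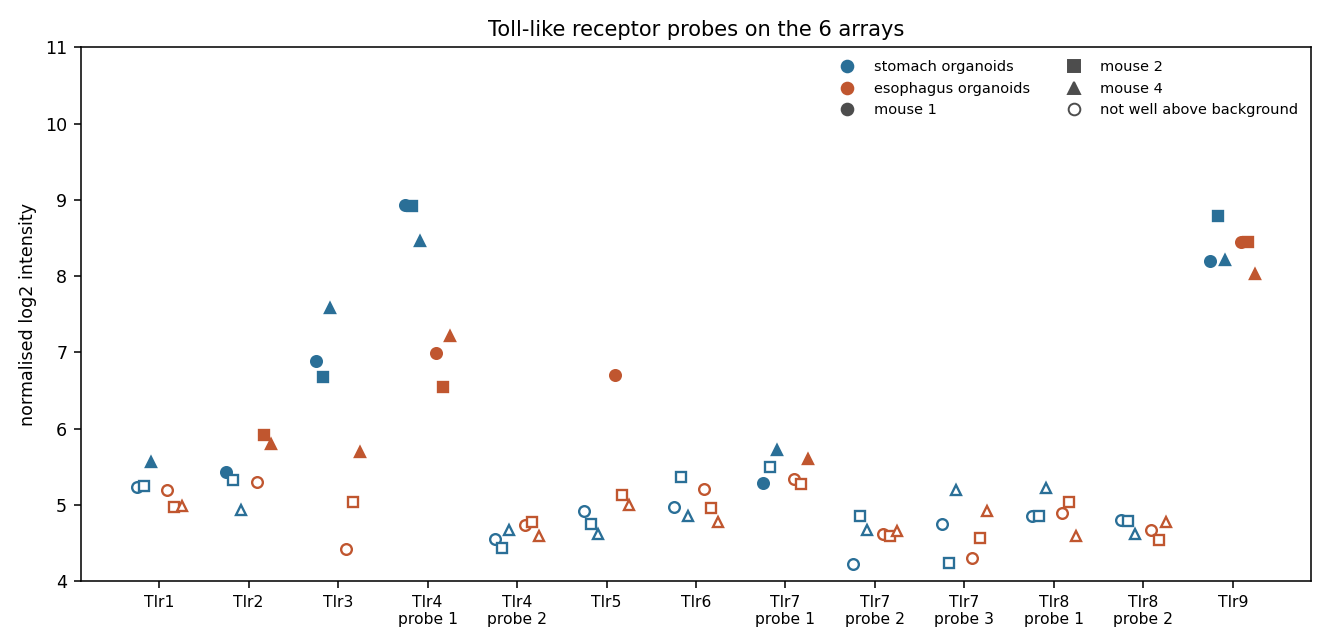
Normalised log2 intensity of the 13 probes of Tlr1 to Tlr9 on each of the 6 arrays. Blue marks stomach and orange esophageal organoids, the shape marks the mouse, and open symbols were not well above background. Only the brightest probes of Tlr4 and Tlr9 are filled on all 6 arrays, the stomach values of Tlr4 (8.47 to 8.94) lie above its esophageal values (6.55 to 7.21), and levels of different probes are not comparable.

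Tlr4, the lipopolysaccharide receptor, was read by a probe at chr4:66503470-66503529 of mm9 on the plus strand (NM_021297), printed at 2 spots of each array. Its log2 values were 8.94, 8.92 and 8.47 in the stomach organoids of mice 1, 2 and 4, and 6.99, 6.55 and 7.21 in their esophageal organoids. All 6 arrays were well above background and the groups did not overlap. The mean was 8.78 ± 0.27 (SD, n = 3) in the stomach and 6.92 ± 0.34 (SD, n = 3) in the esophagus. The difference was -1.86 (standard error 0.22, 95% interval -2.38 to -1.34, limma adjusted p = 0.00119), a 3.63-fold higher level in stomach organoids. It was negative in each mouse, at -1.95, -2.38 and -1.25, and 4.70% of all probes had a larger difference in either direction. In bulk RNA of this kind, fewer cells expressing a gene and less RNA per cell cannot be told apart.

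The call for Tlr4 was made under all 16 alternative settings. On the slide that held both tissues the difference was -2.01 (limma adjusted p = 0.00154), and without the day 7 organoids, stomach replicate 4, it was -2.01 (limma adjusted p = 0.00168). A second Tlr4 probe, designed on another transcript (ENSMUST00000107365.2) and lying at chr4:66590077-66590136, stayed below background on every array, with log2 values from 4.43 to 4.78. Averaging both probes therefore shrank the difference to -0.85 (limma adjusted p = 0.005).

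Tlr3, the receptor for double-stranded RNA, was read by a probe at chr8:46481729-46481788 of mm9 on the minus strand (NM_126166). Its log2 values were 6.88, 6.68 and 7.58 in the stomach organoids of mice 1, 2 and 4, and 4.42, 5.04 and 5.69 in the esophageal organoids. All 3 stomach arrays were well above background, of the esophageal arrays only that of mouse 4 was, and the groups did not overlap. The mean was 7.05 ± 0.48 (SD, n = 3) in the stomach and 5.05 ± 0.64 (SD, n = 3) in the esophagus. The difference was -1.997 (standard error 0.36, 95% interval -2.82 to -1.17, limma adjusted p = 0.00895). With each esophageal array raised to its lowest signal well above background where the probe lay under it, the stomach level was 3.42-fold higher, and 2.84- to 3.96-fold with single arrays left out. In the 3 mice the difference was -2.46, -1.64 and -1.89, and for mice 1 and 2 it is set against an esophageal signal that was not well above background.

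The call for Tlr3 also held under all 16 alternatives, and its size ranged from -1.32 with mean intensities, a normexp offset of 50 and quantile normalization to -3.75 with the software's background-subtracted intensities and 75th percentile scaling, settings that change the background correction together with other steps. Its highest adjusted p was 0.0371, without stomach replicate 1. Within the shared slide the difference was -2.32 (limma adjusted p = 0.00367), and without the day 7 organoids it was -1.73 (limma adjusted p = 0.0211).

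**Figure D2:**
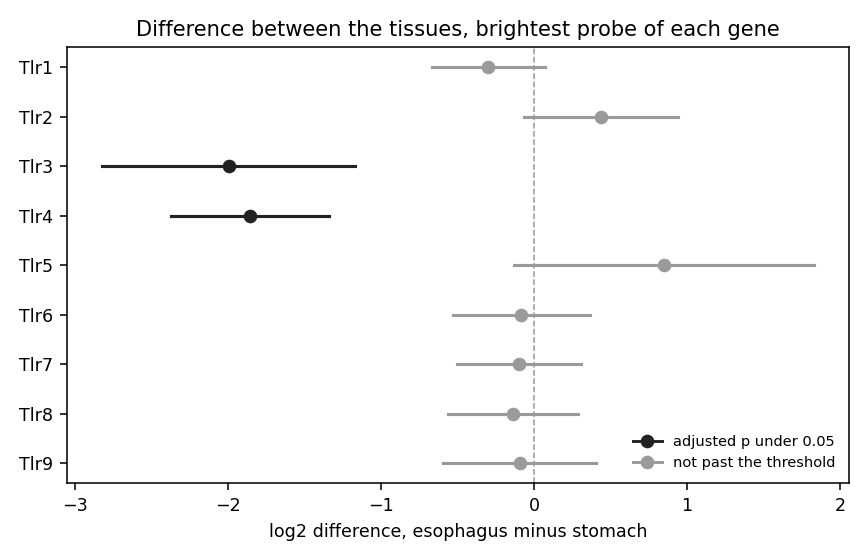
Log2 difference between the tissues, esophagus minus stomach, for the brightest probe of each receptor gene, with its 95% interval from limma. The intervals of Tlr3 (-2.82 to -1.17) and Tlr4 (-2.38 to -1.34) lie below 0, and black marks an adjusted p under 0.05.

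Tlr9, the receptor for CpG DNA, was measured on all 6 arrays and did not pass the test. Its probe lies at chr9:106128979-106129038 of mm9 on the plus strand (NM_031178). The log2 values were 8.20, 8.79 and 8.21 in stomach organoids and 8.44, 8.44 and 8.03 in esophageal organoids of mice 1, 2 and 4. The groups overlapped, with the highest value in the stomach organoids of mouse 2 and the lowest in the esophageal organoids of mouse 4. The difference was -0.09 (standard error 0.22, limma adjusted p = 0.862), and its 95% interval, -0.59 to 0.41, holds values of either sign and ends short of the differences of Tlr3 and Tlr4.

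Upstream sequence is shown for these endosomal receptors, Tlr3, which differed, and Tlr9, which did not. Each run is the 250 bases before the transcription start in RefSeq (GRCm38.p6), where 7 of the 9 genes had an entry. The Tlr3 window is chr8:45410381-45410630 on the minus strand and the Tlr9 window chr9:106222348-106222597 on the plus strand. Capitals mark matches, on either strand, to any of 6 motifs: the NF-κB consensus, the AP-1 site TGANTCA, the core of the PU.1 site GAGGAA, the core of the interferon-stimulated response element (GAAA, any 2 bases, GAAA), the GC box GGGCGG and the TATA box TATAAA.
Tlr3: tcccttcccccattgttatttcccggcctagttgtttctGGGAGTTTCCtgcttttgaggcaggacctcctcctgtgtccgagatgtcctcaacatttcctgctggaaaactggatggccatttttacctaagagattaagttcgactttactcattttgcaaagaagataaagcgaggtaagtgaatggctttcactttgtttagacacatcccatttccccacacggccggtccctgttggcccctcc
Tlr9: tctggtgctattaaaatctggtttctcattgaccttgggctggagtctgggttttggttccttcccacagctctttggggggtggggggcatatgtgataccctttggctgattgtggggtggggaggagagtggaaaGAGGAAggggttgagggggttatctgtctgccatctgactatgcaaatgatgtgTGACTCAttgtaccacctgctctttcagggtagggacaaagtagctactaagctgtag

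The Tlr3 window held 1 match to the NF-κB consensus, beginning 211 bases before the start, and none to the other motifs. The Tlr9 window held a PU.1 core beginning 112 bases and an AP-1 site beginning 58 bases before the start. Of 32851 windows of this length, 7.25% held the NF-κB consensus, 6.75% the AP-1 site, 23.3% the PU.1 core, 2.98% the interferon element core, 32.7% the GC box and 12.4% the TATA box. These matches are letters in the reference and say nothing of binding in the organoids.

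Tlr2, which forms the lipopeptide receptors with TLR1 or TLR6, was printed 10 times on each array (chr3:83640344-83640403 of mm9, minus strand, NM_011905). The means over its spots were 5.43, 5.33 and 4.93 in stomach organoids and 5.31, 5.92 and 5.79 in esophageal organoids of mice 1, 2 and 4. Of the 10 spots, 8, 2 and 0 were well above background on the stomach arrays, and 0, 10 and 9 on the esophageal arrays. The signal thus sat at the detection limit, crossed it on the esophageal arrays of mice 2 and 4 and on the stomach array of mouse 1, and the groups overlapped. The difference was 0.44 (standard error 0.22, 95% interval -0.06 to 0.94, limma adjusted p = 0.275), with -0.12, 0.59 and 0.86 in the 3 mice. No alternative called it. The SD between spots of an array was 0.03 to 0.19, and the SD between the array means of a tissue was 0.26 in the stomach and 0.32 in the esophagus.

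**Figure D3:**
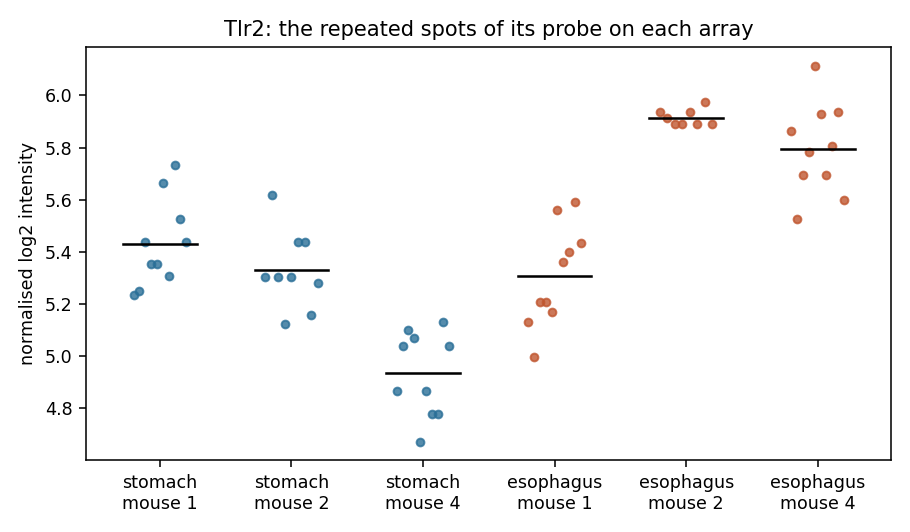
Normalised log2 intensity of the repeated spots of the Tlr2 probe on each array, with a line at the mean. Spots marked as outliers by the software are left out, 1 in the stomach organoids of mouse 2 and 2 in the esophageal organoids of mouse 2. The esophageal arrays of mice 2 and 4 have means of 5.92 and 5.79, and that of mouse 1, at 5.31, lies among the stomach arrays.

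Tlr5, the flagellin receptor, was well above background on 1 array only. Its probe (chr1:184906031-184906090 of mm9, plus strand, NM_016928) read 4.92, 4.75 and 4.63 in stomach organoids and 6.71, 5.13 and 5.001 in esophageal organoids of mice 1, 2 and 4. The esophageal organoids of mouse 1 stood apart from the other 5 arrays, all of which were below background. The groups did not overlap. The difference was 0.85 (standard error 0.42, limma adjusted p = 0.283), and it was 0.30 without esophagus replicate 1 (limma adjusted p = 0.377).

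Tlr1, a partner of TLR2, read 5.24, 5.25 and 5.56 in stomach and 5.19, 4.97 and 4.99 in esophageal organoids, and only the stomach array of mouse 4 was well above background. The groups did not overlap, and the difference was -0.30 (95% interval -0.67 to 0.07, limma adjusted p = 0.317). With the background-subtracted intensities and 75th percentile scaling it was -1.66 (limma adjusted p = 0.0274), the 1 of 15 alternatives that called it. In all, 4 of the 9 genes had groups that did not overlap (Tlr1, Tlr3, Tlr4 and Tlr5), as had 28.6% of all probes.

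Tlr6, the other partner of TLR2, was not well above background on any of the 6 arrays, with log2 values from 4.77 to 5.36. Tlr8, a receptor for single-stranded RNA, was below background on all 6 arrays with both of its probes, with values from 4.55 to 5.22. Tlr7, the related receptor whose gene lies beside Tlr8 on the X chromosome, had 3 probes, and 2 of them were below background throughout. Its brightest probe read 5.28, 5.49 and 5.72 in stomach and 5.35, 5.27 and 5.60 in esophageal organoids, and was well above background in the stomach organoids of mice 1 and 4 and the esophageal organoids of mouse 4. The differences were -0.08 for Tlr6, -0.10 for Tlr7 and -0.14 for Tlr8, and the limma adjusted p ranged from 0.740 to 0.863. A difference of any size below the detection limit would not have been visible here.

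Mice have further Toll-like receptors. Tlr13, which binds bacterial ribosomal RNA, was well above background on all 6 arrays and read 7.07, 7.28 and 6.73 in stomach and 7.73, 8.29 and 7.42 in esophageal organoids. The groups did not overlap, with a difference of 0.79 (standard error 0.25, limma adjusted p = 0.0962). It passed with the mouse as a block (limma adjusted p = 0.0372) and without esophagus replicate 4 (0.99, limma adjusted p = 0.0472). Tlr11 and Tlr12, receptors for a protozoan profilin, were below background on all 6 arrays.

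Of the genes that work with TLR4 in binding lipopolysaccharide, Cd14, Lbp and, less firmly, Ly96 were higher in stomach organoids. Of 7 genes for ligand capture, 3 were called with the higher level in the stomach and 0 with the opposite sign. The list's median difference, -0.34, is the value of Cd36, which was below background on all 6 arrays, and is no measure of the list. Cd14, which hands lipopolysaccharide to TLR4, read 11.65, 11.97 and 10.99 in stomach and 8.21, 7.47 and 8.40 in esophageal organoids. These groups lay apart by -3.51 (standard error 0.32, limma adjusted p = 0.000273), an 11.4-fold higher level in the stomach. Lbp, the lipopolysaccharide-binding protein, read 9.16, 9.95 and 7.10 in stomach organoids and 4.61 to 4.71 in esophageal organoids, where no array was well above background. Lbp was called higher in the stomach (limma adjusted p = 0.00433). A fold of 13.7 sets the mean of the brighter tissue against the lowest signal well above background on each array of the other. Where the probe's own signal was higher, that signal was used. This fold is an estimate from 3 arrays per tissue and not a lower limit. Probes that are not well above background can read above that lowest signal. The fold was 24.2 without stomach replicate 4, the lowest of its group, and 9.02 without stomach replicate 2, the highest. Over the 16 alternatives the Lbp difference ran from -6.69, with background-subtracted intensities and 75th percentile scaling, to -2.08. It was -2.99 with mean intensities, a normexp offset of 50 and quantile normalization, so the fold applies to the deposited log2 values only. A second Lbp probe was below background on all 6 arrays.

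Ly96, which encodes MD-2, the part of the receptor complex that holds lipopolysaccharide, read 10.32, 10.18 and 10.39 in stomach and 9.76, 9.58 and 9.77 in esophageal organoids. The groups did not overlap. The difference was -0.59 (standard error 0.14, limma adjusted p = 0.0360), a 1.51-fold higher level in the stomach. It lost the call in 10 of 16 alternatives, among them each of the 6 fits that left out 1 array (limma adjusted p 0.0607 to 0.133), the mouse as a block (limma adjusted p = 0.0693), moderation with trend and robust variances (limma adjusted p = 0.128) and the background-subtracted intensities with 75th percentile scaling (-0.50, limma adjusted p = 0.412). The other 4 genes of the list, Cd36, Cd180, Ly86 and Tril, were below background on all 6 arrays.

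Of 9 genes for folding, trafficking and processing of the receptors, 2 were called, each with the higher level in the stomach. Unc93b1, which carries the endosomal receptors to their compartment, read 9.48, 9.54 and 9.67 in stomach and 7.14, 7.62 and 7.88 in esophageal organoids. That is a difference of -2.02 (standard error 0.21, limma adjusted p = 0.000541), 4.05-fold. Lgmn, a lysosomal protease that takes part in cleaving endosomal receptors, differed by -1.36 (standard error 0.22, limma adjusted p = 0.0060). The chaperone Hsp90b1 (-0.65, limma adjusted p = 0.201) and its cofactor Cnpy3 (-0.33, limma adjusted p = 0.482), on which folding of most TLRs depends, did not pass. With single arrays left out, Hsp90b1 ran from -0.82 to -0.37 and Cnpy3 from -0.54 to -0.13, and neither was called.

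**Figure D4:**
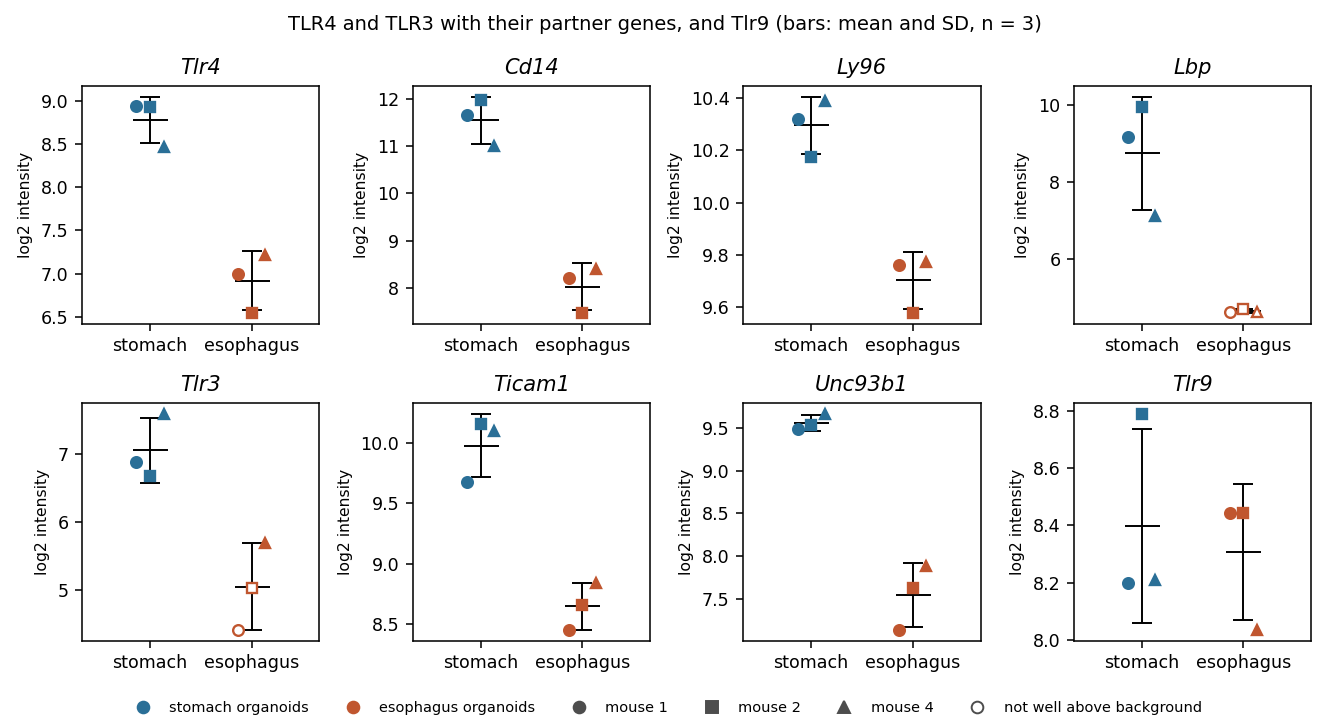
Normalised log2 intensity by array for Tlr4 with Cd14, Ly96 and Lbp (upper row) and for Tlr3 with Ticam1 and Unc93b1, and Tlr9 (lower row). Bars give the mean and SD of 3 arrays, the axes differ between panels and do not start at 0, and open symbols were not well above background. In every panel but that of Tlr9 the 3 stomach values lie above the 3 esophageal values.

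Among the 5 adaptors, Ticam1, which encodes the TRIF adaptor of TLR3 and TLR4, was higher in the stomach, and no adaptor was called in the other direction. It read 9.68, 10.16 and 10.10 in stomach and 8.45, 8.65 and 8.84 in esophageal organoids, a difference of -1.33 (standard error 0.19, limma adjusted p = 0.00286) or 2.52-fold. Myd88, the adaptor of the other receptors, had values of 10.29 to 10.84 in stomach and 10.997 to 11.55 in esophageal organoids. Its groups did not overlap, and its difference of 0.69 missed the threshold (standard error 0.21, limma adjusted p = 0.0769) there and in every one of the 16 alternatives run with an adjusted p. Tirap, which brings MyD88 to TLR2 and TLR4, differed by -0.46 (limma adjusted p = 0.308), and was called in 1 of 16 alternatives, without esophagus replicate 1 (-0.73, limma adjusted p = 0.0412). Ticam2, the bridge between TLR4 and TRIF, was below background on all 6 arrays.

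Downstream, changes ran in both directions. Of 17 kinases and ubiquitin ligases, 2 had the higher level in the esophagus and 1 had it in the stomach, and the core kinases Irak1, Irak4 and the ligase Traf6 did not pass. Peli2, a ubiquitin ligase acting on IRAK proteins, was 7.90-fold higher in the esophagus (2.98, standard error 0.19, limma adjusted p = 3.47e-05). Its difference was 2.37 with mean intensities, a normexp offset of 50 and quantile normalization. With background-subtracted intensities and 75th percentile scaling it was 3.96. Tab1, an activator of the kinase TAK1, was 2.81-fold higher in the stomach (-1.49, limma adjusted p = 0.00568). Tbk1, the kinase that activates IRF3, was 1.65-fold higher in the esophagus (0.72, limma adjusted p = 0.0389) and lost the call in 8 of 16 alternatives, among them the mouse as a block (limma adjusted p = 0.0557) and leaving out stomach replicate 1 or 2 or esophagus replicate 2 or 4 (limma adjusted p 0.0995 to 0.144). Of 8 transcription factors, Irf5 (3.004, standard error 0.17, limma adjusted p = 2.07e-05, 8.02-fold) and Nfkb1 (0.92, standard error 0.16, limma adjusted p = 0.00887, 1.90-fold) were higher in the esophagus, while Rela and Irf3 did not pass. With the background-subtracted intensities and 75th percentile scaling Nfkb1 lost the call (1.01, limma adjusted p = 0.0655), and a dimmer Nfkb1 probe differed by 0.79 and did not pass (limma adjusted p = 0.0873).

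Of 16 genes of negative feedback, 1 had the higher level in the esophagus and 3 had it in the stomach. Nfkbia, which encodes the NF-κB inhibitor IκBα, read 11.96, 12.01 and 12.53 in stomach and 15.33, 14.90 and 13.34 in esophageal organoids. The esophageal organoids of mouse 4 were lowest of their group, and the difference was 2.36 (standard error 0.47, limma adjusted p = 0.0156). Leaving out stomach replicate 1, stomach replicate 2 or esophagus replicate 2 in turn ended the call, with limma adjusted p up to 0.0759, and without esophagus replicate 4 the difference was 2.95. Sigirr, an inhibitory receptor of the interleukin-1 receptor family that shares the TIR domain with the TLRs, was higher in the stomach (-1.43, limma adjusted p = 0.00157). So were the A20-binding proteins Tnip1 (-1.74, limma adjusted p = 0.00577) and Tnip3 (limma adjusted p = 0.00561), although a dimmer Tnip3 probe did not pass (limma adjusted p = 0.116). With the esophageal arrays raised as for Lbp, the Tnip3 fold was 3.02, and 2.41 to 3.64 with single arrays left out. The Tnip3 fold is likewise no lower limit and applies to the deposited log2 values only. Its difference was -1.12 with mean intensities, a normexp offset of 50 and quantile normalization. With background-subtracted intensities and 75th percentile scaling it was -4.45. Tollip, which restrains IRAK1, differed by 0.57 on its brightest probe (limma adjusted p = 0.238) and by 1.22 on another (limma adjusted p = 0.0124). The remaining probe differed by -0.18 (limma adjusted p = 0.627), so that its 3 probes, all well above background on all 6 arrays, disagreed. Nfkbiz, an atypical IκB protein, differed by -1.22 (limma adjusted p = 0.121) and was called in 2 of 16 alternatives, with the mouse as a block (limma adjusted p = 0.00723) and without stomach replicate 4 (-1.62, limma adjusted p = 0.0314). With the other arrays left out in turn it was not called, at -0.88 without esophagus replicate 4 and with the highest limma adjusted p, 0.354, without stomach replicate 2.

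Of 16 genes that TLR signals are known to induce, 2 were higher in the esophagus, 1 in the stomach, and 6 were below background on all 6 arrays. Lcn2, an iron-sequestering antibacterial protein, read 8.84, 10.09 and 8.29 in stomach and 6.92, 5.53 and 5.33 in esophageal organoids, of which that of mouse 4 was not well above background. Its difference was -3.15 (limma adjusted p = 0.0076), with no fold given because of that array. Defb3, a beta-defensin, read 8.49, 8.62 and 6.48 in esophageal organoids and 5.004, 4.71 and 4.56 in stomach organoids, where no array was well above background. It was called higher in the esophagus (limma adjusted p = 0.00704). With the stomach arrays raised as the esophageal arrays were for Lbp, the fold was 7.85. With single arrays left out this fold ran from 6.03, without esophagus replicate 2, to 12.7, without esophagus replicate 4, the lowest of its group. The Defb3 fold is likewise no lower limit and applies to the deposited log2 values only. Its difference was 2.16 with mean intensities, a normexp offset of 50 and quantile normalization. With background-subtracted intensities and 75th percentile scaling it was 5.87. Ptgs2, the inducible cyclooxygenase, read 5.27, 5.11 and 5.81 in stomach and 8.40, 10.53 and 6.70 in esophageal organoids, and the stomach array of mouse 2 was not well above background. Its difference of 3.14 (standard error 0.83, limma adjusted p = 0.0470) lost the call in 9 of 16 alternatives, among them the mouse as a block (limma adjusted p = 0.0612) and leaving out stomach replicate 1, 2 or 4 or esophagus replicate 1 (limma adjusted p 0.0719 to 0.165), and it was 2.15 without esophagus replicate 2 and 4.07 without esophagus replicate 4.

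Over all 81 genes of the 8 pathway lists, 7 were higher in the esophagus, 11 in the stomach and 63 were not called. The lists' median difference was -0.05, against 0.03 over all gene names. That median is the value of Tlr12, 1 of 13 genes of the lists that were below background on all 6 arrays. The called share in either direction stands beside 14.9% of all gene names, and beside 26.6% of those that passed the background flag on each of the 3 arrays of some tissue. The count higher in the esophagus was 4 without stomach replicate 1, 4 without stomach replicate 2 and 12 without esophagus replicate 4, beside 10 higher in the stomach each time.

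**Figure D5:**
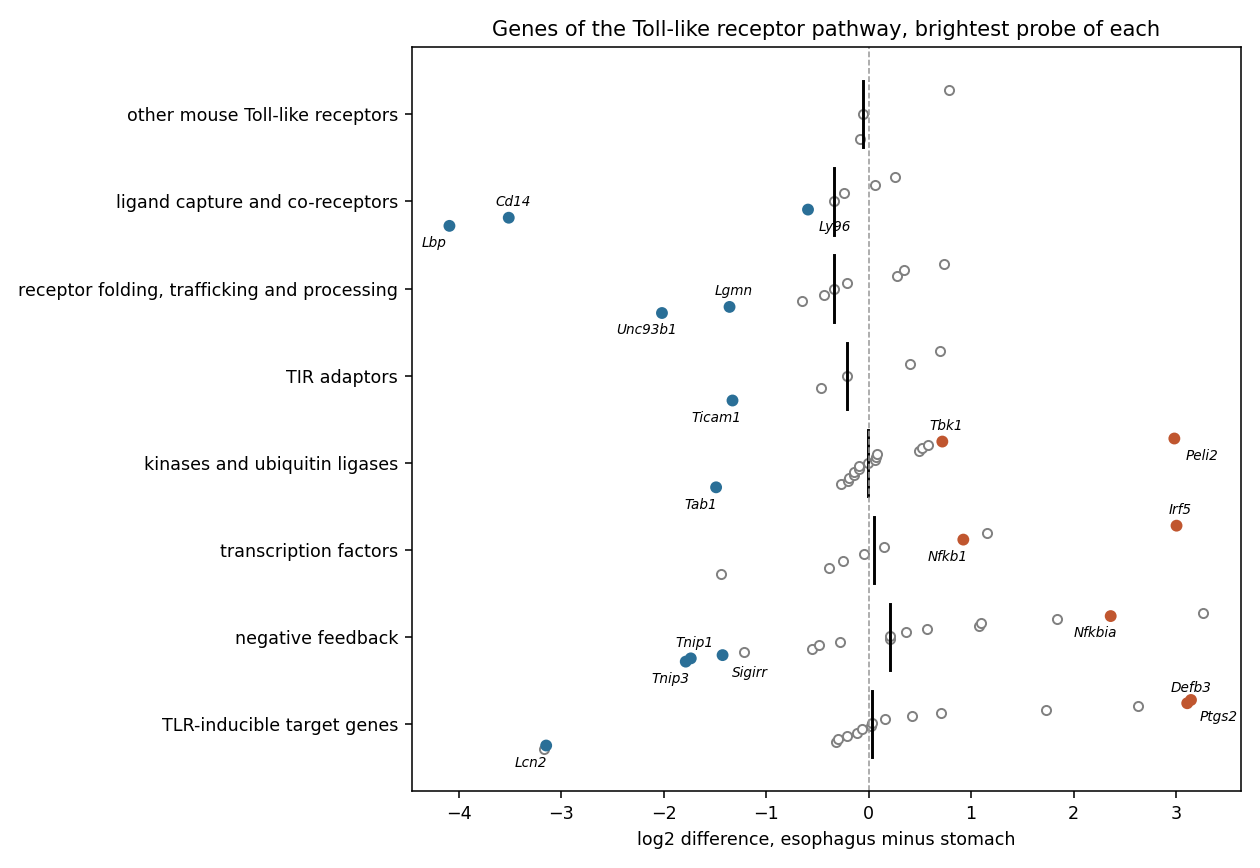
Log2 difference, esophagus minus stomach, of the brightest probe of each gene in the 8 pathway lists. Filled points passed an adjusted p of 0.05 and are named, open points did not, and black bars give the median of each list. The called genes of ligand capture, trafficking and adaptors all lie left of 0, where the stomach is higher, and those of the other called lists lie on both sides or, for transcription factors, on the right.

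Markers of other cell types that carry TLRs were read on the same arrays. Of 14 immune cell markers, 9 were below background on all 6 arrays, among them Ptprc (the pan-leukocyte CD45), Adgre1, Spi1, Tyrobp and Lyz2. The summed linear intensity of the 14 markers ranged from 12499 to 17789 on the stomach arrays and from 5773 to 31090 on the esophageal arrays. That sum follows Cd68 and Itgam, and without them it was 729.7 to 884.0 on the stomach arrays and 731.3 to 745.1 on the esophageal arrays, most of its probes being below background. As levels of different probes are not comparable, such sums are read between arrays only and not as an amount of immune cells. Cd68, Csf1r, Cd3e and Cd79a had a measured probe and were not called. Of these, Cd68 differed by 1.63 on its brightest probe (limma adjusted p = 0.211), with 3.74, 1.72 and -0.56 in mice 1, 2 and 4. Its dimmer probe differed by 1.41 (limma adjusted p = 0.163). Itgam was the 1 called marker, higher in the stomach by -2.62 (limma adjusted p = 0.000662) on a probe measured on all 6 arrays, while its other 2 probes were below background on all of them. None of 4 endothelial and 7 fibroblast or smooth muscle markers was called. The part of such cells in the Tlr3 and Tlr4 differences was not tested.

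The genes whose pattern over the 6 arrays was most like that of a measured receptor were found by the root mean square difference of log2 values, each centred on its own mean. For Tlr4 they were Cfap126 (0.129), Fxyd3 (0.157) and Mfge8 (0.165), among 11491 genes compared. For Tlr3 they were Ehhadh (0.187), Kcnk1 (0.192) and Tnnt1 (0.203), among 12561 genes. For Tlr9 they were Guca1b (0.0809), 1700028I16Rik (0.082) and Irak2 (0.0848), among 11491 genes, of which Irak2 encodes a kinase of the TLR pathway. This likeness is a description over 6 arrays and carries no test.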

How the data were processed

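Organoid RNA was labelled with Cy3 and hybridised as 1 sample per array, and the authors quantified the scans in Agilent Feature Extraction (version 11.5.1.1, per the file headers, with mm9 coordinates). The deposited scanner files hold raw and background-subtracted spot intensities and flags. The deposited table of log2 values had been background corrected and quantile normalized by the authors. These log2 values differed from normexp (offset 15) and quantile normalization of the median intensities by a median of 0.00433. They were averaged over the spots of each probe and fitted with limma (version 3.58.1, R 4.3.3; lmFit, eBayes, no block), and p-values were adjusted by Benjamini-Hochberg across every probe. On simulated data of this comparison (55681 probes), 10 of 100 probes changed by 1 and 75 of 100 changed by 2 on the log2 scale were recovered, with 1 false call. No other probes were changed there, while 6770 were called on the arrays. As the Benjamini-Hochberg threshold depends on the share of changed probes, these counts do not give the recovery on the arrays. The fit has 3 mice per tissue, which limits the precision, and an exact permutation test could not go below p = 0.1. The sample titles give the same mouse numbers for both tissues, which would pair the arrays, and the pairing rests on these titles. Deviations of a mouse's arrays from their tissue means correlated with r = 0.042, 0.0226 and -0.00178 over 25836 probes. The genes and lists were chosen with earlier results of these data known. Named were all members, the called genes of each list (at most 5 per direction, above background on each of the 3 arrays of some tissue), a fixed set of central pathway genes, and for each measured member the 3 genes most like it. Other genes are mentioned where a count needed them, chosen after their values were seen. Alternatives covered background correction, normalization, outlier-marked spots, dim probes, averaging of probes, moderation, the mouse and the slide as blocks, the methods' threshold and each array left out. The fold of Tlr3 over the lowest signal well above background, and such folds with arrays left out, and the immune marker sum without Cd68 and Itgam were chosen after seeing the data. Promoter sequences are from RefSeq (GRCm38.p6).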

Additional observations from a re-analysis of the deposited data

How the results depend on the processing

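The counts of receptor genes called, 0 with the higher level in the esophagus and 2 with it in the stomach, were the same under every alternative except the software's background-subtracted intensities with 75th percentile scaling, which change background correction and normalization together and where Tlr1 made it 3. That setting moved the median difference of all probes to 0.19, against 0.02. Called pathway genes numbered 7 with the esophagus above and 11 with the stomach above, against 12 and 10 with the slide as a block, 14 and 14 at an unadjusted p under 0.05 with a 1.5-fold change (the methods give this threshold without saying whether p was adjusted), and 4 to 12 and 10 to 14 with single arrays left out. Of all probes, 6770 were called, and 4091 to 7415 with single arrays left out, the lowest being 4091 without stomach replicate 1 and 4152 without stomach replicate 2. The slide as a block equals leaving out esophagus replicate 4, the only array of its slide. The replicate block for the mouse gave 7 and 12 pathway genes and 6153 probes. It changed the calls of Tlr13, Ly96, Tbk1, Nfkbiz and Ptgs2 as given above and of no other named gene. Averaging the probes of a gene gives no count of probes, and the filter on dim probes left no value for the dim genes. The sign turned only for genes that were not called. With mean intensities and an offset of 16 this was Tlr6 (0.0016) and Tlr11 (0.0034), and with an offset of 50 Tlr11 (0.0012). With background-subtracted intensities and 75th percentile scaling it was Tlr8 (0.062), Tlr11 (0.20), Tlr12 (0.14) and Ticam2 (0.057), and with the slide as a block Tlr6 (0.020) and Tlr9 (0.044). With arrays left out in turn, the differences ran from -0.20 to 0.068 for Tlr6, -0.20 to 0.016 for Tlr7, -0.19 to 0.10 for Tlr9, -0.13 to 0.0060 for Tlr11 and -0.20 to 0.17 for Tlr12. The cause of these moves was not tested. Signal over background limits what Tlr1, Tlr2 and Tlr5 to Tlr8 can show.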
